A study of Danio rerio with 6 samples.

Results

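Splicing factors and heterogeneous nuclear ribonucleoproteins (hnRNPs) were described in RNA of whole zebrafish embryos, 25 hours after fertilization, that were labelled as prdm1 null mutants or as wild type. The members were all probe sets of the array whose single annotated gene symbol began with hnrnp, ptbp, srsf, khdrbs, sf3a, sf3b, u2af, snrp, lsm and a digit, prpf, ddx, dhx or rbm. They were 194 of the 15617 probe sets, and they stood for 143 of the 8793 genes that a single symbol names. Of these 194, 18 lay in the dimmest 30% of the array and were not tested, which left 176 tested probe sets of 135 genes. The symbol rule takes in relatives that do not act in splicing, such as RNA helicases of ribosome assembly, so the members are a family of RNA-binding and RNA-remodelling proteins rather than a list of spliceosome parts.

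The study compared 3 mutant with 3 wild-type RNA samples, each on its own Affymetrix array. The labels give the mutant genotype as a null of prdm1, in a series titled for prdm1a, and say that embryos were sorted by their phenotype by eye. The labels name no allele and no number of embryos per sample. The product of prdm1a, also called Blimp1, is a transcription factor with zinc fingers that is needed for slow muscle and for cells of the neural plate border, and its own level was not analysed here. The comparison asks which transcripts differ without it.

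Introns are removed from transcripts by the spliceosome, which is built from small nuclear ribonucleoproteins (snRNPs) that carry rings of Sm or LSm proteins. SR proteins bind exons and recruit the spliceosome, hnRNPs coat the transcript and often hold it off, and helicases of the DEAD-box and DEAH-box families drive the rearrangements. These genes are used by nearly all cells, and vertebrate embryos express many of them at high levels.

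The arrays had been scaled alike before deposit, with a 2% trimmed mean signal of 500.1 on each. Correlations of log2 signal ran from 0.967 to 0.969 between mutant arrays, from 0.948 to 0.976 between wild-type arrays and from 0.923 to 0.949 between genotypes. Wild type replicate 3 stood furthest from its group, with a root mean square deviation from the group mean of 0.365 on the log2 scale over the members, against 0.199 to 0.287 on the other arrays. The ratio of 3' to 5' signal of the actc1b control probe sets, a sign of RNA quality, ran from 26.2 to 38.8 in the mutant and from 55.4 to 92.4 in the wild type (p = 0.1 in an exact permutation test, two-sided, which 3 against 3 arrays cannot go below). That of gapdhs ran from 3.28 to 7.65 and from 9.16 to 14.5 (exact permutation p = 0.1). Neither ratio overlapped between genotypes. The fits below with a ratio as a covariate therefore cannot tell the part of the ratio from that of genotype. Markers of some tissues moved with genotype as well. Both slow muscle probe sets were lower past the threshold, with summed signals of 5251 to 7171 in the mutant and 16313 to 18584 in wild type. Of 7 fast muscle probe sets 6 were higher (70240 to 92035 and 45200 to 46732), and of 5 neural crest probe sets 3 were lower (3378 to 4031 and 5316 to 6215). Such sums follow their brightest probe sets. The brightest neural crest set, that of tfap2a, did not pass (log2 fold change -0.14, limma adjusted p = 0.524). Markers of other tissues mostly did not pass. Of these, 1 of 10 neuron, 1 of 4 epidermis and 1 of 5 erythroid probe sets were lower past the threshold and none higher. None of 2 germ cell and 3 notochord probe sets passed. Single signals went down to 22.9 among the germ cell and 27.0 among the neuron markers. The part of the markers in the results below was not tested.

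Most splicing and hnRNP genes were at similar levels in mutant and wild type, and 1 probe set of hnrnpa0a stood far outside the rest. Of the 176 tested probe sets, 3 passed an adjusted p of 0.05 (limma, Benjamini-Hochberg over all 10851 tested probe sets). The probe sets of hnrnpa0a (8.13-fold) and hnrnpua (1.70-fold) fell in the mutant, and that of prpf38a (1.90-fold) rose. The share called was 1.70%, against 3.39% of all tested probe sets (1.54% higher and 1.85% lower). The arrays of the 2 genotypes did not overlap for 50 members (28.4%), 20 higher and 30 lower in the mutant, against 27.0% of all probe sets (13.2% higher, 13.8% lower). At an unadjusted p under 0.05 there were 29 members (16.5%), 13 higher and 16 lower, against 20.6% of all (10.2% higher, 10.3% lower). The share called in the family was below that of the array, and the shares by the other 2 counts were near it.

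The members' differences were mostly small, as over the array. Their median log2 fold change was -0.04 (quartiles -0.25 and 0.22), against 0.02 (-0.23 and 0.28) over all tested probe sets. The median size of the log2 fold change, without its sign, was 0.23 among members and 0.25 over all. Only 3 members (1.70%) were past 1 on the log2 scale in either direction, those of hnrnpa0a, srsf1a and rbm12bb, against 6.03% of all probe sets. For 139 members (79.0%) the 95% interval of the log2 fold change lay within -1 to 1, so that a change of 2-fold lay outside it. The same held for 67.6% of all tested probe sets. The median standard error was 0.19 among the members and 0.22 over all.

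**Figure D1:**
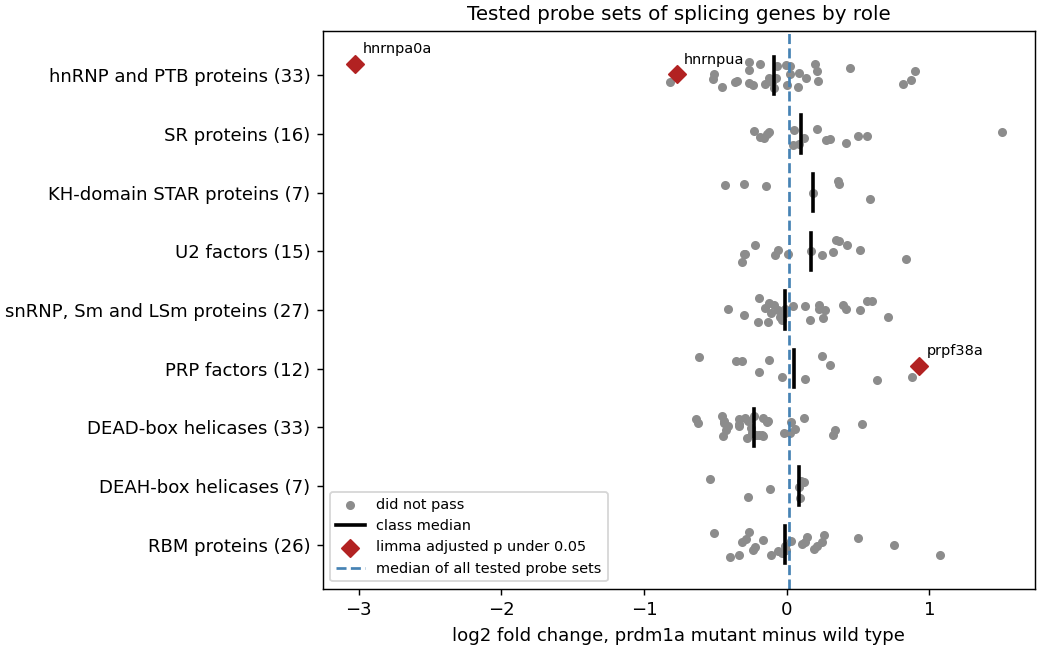
Log2 fold change (mutant minus wild type, x axis) of each of the 176 tested probe sets, grouped by role on the y axis with the number of probe sets in brackets. Diamonds mark the 3 probe sets with a limma adjusted p under 0.05, black bars the class medians and the dashed line the median of all tested probe sets, and the DEAD-box median of -0.23 lies furthest to the left.

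The hnRNP proteins package nascent transcripts, and the polypyrimidine tract binding (PTB) proteins are hnRNPs that repress exons. This class had 33 probe sets of 23 genes, all of them tested, of which 2 fell, none rose and 31 did not pass. The class median log2 fold change was -0.09, and 12 probe sets did not overlap between genotypes, 2 higher and 10 lower in the mutant, against 27.0% of all tested probe sets (13.2% higher, 13.8% lower).

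The gene hnrnpa0a encodes an RNA-binding protein of the hnRNP A family. Its probe set Dr.5122.1.S1_at had signals of 424, 607 and 543 in the 3 mutant arrays and of 4402, 4736 and 3598 in the wild type. Every mutant array was thus far below every wild-type array, and no array approached the other group. Mean log2 signals were 9.02 ± 0.27 for mutant and 12.04 ± 0.21 for wild-type arrays (SD, n = 3 per genotype), and the log2 fold change was -3.02 (limma adjusted p = 6.8e-05, SE 0.17). These values belong to Dr.5122.1.S1_at, and whether the transcripts of hnrnpa0a as a whole fell was not tested. Nor can RNA from whole embryos tell fewer cells with a transcript from less of it per cell.

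The other probe sets of hnrnpa0a did not show this difference. The second, Dr.5122.1.S2_at, shares the first part of its name with the first and had signals of 3966, 3765 and 4123 in the mutant and 4419, 5305 and 5572 in the wild type. The groups did not overlap, but the log2 fold change was -0.36 (95% interval -0.64 to -0.08, limma adjusted p = 0.147). The third, Dr.25764.1.A1_at, had signals of 450, 361 and 355 against 529, 513 and 368, which overlapped, at a log2 fold change of -0.26 (95% interval -0.71 to 0.18, limma adjusted p = 0.494). Neither of these probe sets passed.

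Whether probe sets of one gene differ in their response was tested directly. Within each array the log2 signal of one probe set was subtracted from that of another of the same gene, and this difference was compared between genotypes in limma over all 1301 such pairs of the array, of which 17 passed (1.31%). Of 62 member pairs 2 passed (3.23%), both of which contain Dr.5122.1.S1_at. Its log2 fold change was lower than that of Dr.5122.1.S2_at by 2.66 (SE 0.30, limma adjusted p = 0.00456). It was lower than that of Dr.25764.1.A1_at by 2.76 (SE 0.30, limma adjusted p = 0.00456). The other probe sets differed from each other by 0.10 (SE 0.31, limma adjusted p = 0.902). The pair differences no longer passed with the gapdhs ratio (limma adjusted p = 0.113 for both) or the actc1b ratio as a covariate (0.284 and 0.334), nor without the filter on dim probe sets (0.0616 for both).

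The fall at Dr.5122.1.S1_at itself passed in every fit with a shared variance that was tried. For hnrnpa0a the log2 fold change was -3.15 with the gapdhs ratio as a covariate (limma adjusted p = 0.00646) and -3.01 with the actc1b ratio (0.0182). With single arrays left out it ran from -3.14 to -2.88 (limma adjusted p up to 0.00109).

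**Figure D2:**
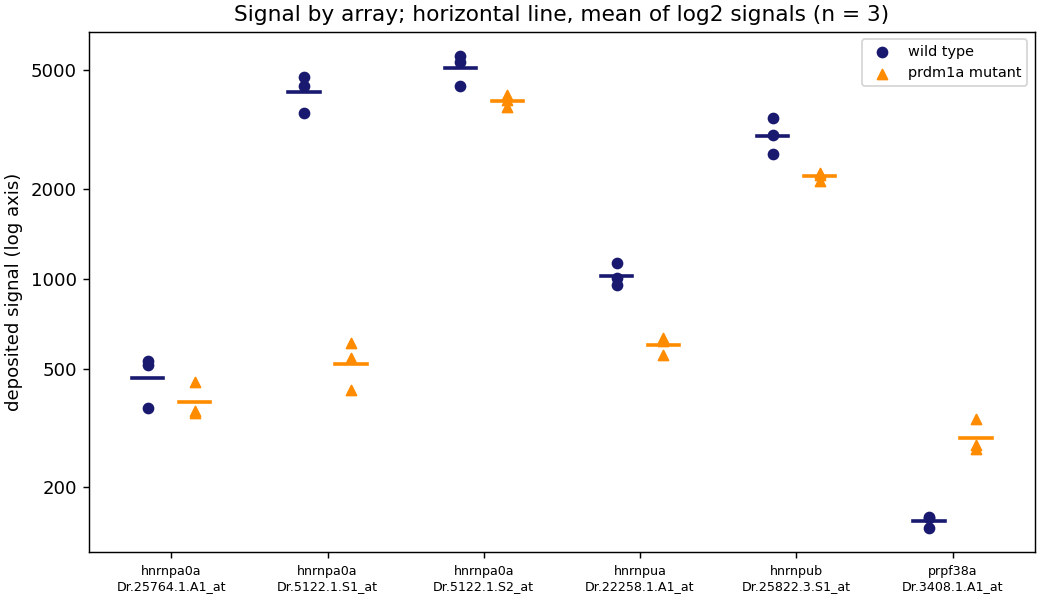
Deposited signal (log axis) of 6 probe sets in the 3 wild-type arrays (circles) and the 3 mutant arrays (triangles), with the mean of the log2 signals as a line. The groups lie far apart at Dr.5122.1.S1_at and close together at the other 2 probe sets of hnrnpa0a, while hnrnpua and hnrnpub lie lower and prpf38a higher in the mutant arrays, with no overlap.

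The paralog hnrnpa0b has 4 probe sets, and it was named after its values were seen. They were at log2 fold changes of 0.82, 0.22, -0.52 and -0.82, and none passed (limma adjusted p from 0.132 to 0.354). At the first, 1 array stood apart: the signals were 2944, 2060 and 2922 in the mutant and 2931, 1772 and 624 in the wild type, and without wild type replicate 3 it was at 0.19. At Dr.1149.2.A1_at every mutant array (12301 to 13061) was above every wild-type array (9898 to 11554), and at Dr.24954.1.A1_at every mutant array (199.9 to 339) was below every wild-type array (363 to 629). The direction of hnrnpa0b therefore depended on the probe set read.

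The hnRNP U proteins bind transcripts and chromatin in the nucleus. For hnrnpua, read by 1 probe set, the signals were 620, 554 and 631 in the mutant and 953, 1002 and 1125 in the wild type, with no overlap. It fell by 0.77 on the log2 scale (SE 0.14, 95% interval -1.09 to -0.44, limma adjusted p = 0.0234). The call ended when mutant replicate 1, 2 or 3 or wild type replicate 2 was left out (limma adjusted p up to 0.0987), without the variance trend (0.0523), and with the ratio of gapdhs (0.297) or of actc1b (0.444) as a covariate. Over all these fits and the other alternatives its log2 fold change stayed between -0.82 and -0.64.

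Its paralog hnrnpub, named after its values were seen, lay in the same direction at its Dr.25822.3.S1_at probe set without passing. The signals were 2259, 2117 and 2228 in the mutant and 3023, 3456 and 2624 in the wild type, which did not overlap. The log2 fold change was -0.45 (SE 0.13, limma adjusted p = 0.103), and it passed at -0.55 without wild type replicate 3 (0.0435). The 2 other hnrnpub probe sets were at -0.09 and -0.12, and their groups overlapped.

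None of the other hnRNP and PTB probe sets passed. Among them hnrnph1, hnrnpdl and ptbp2b were lower and hnrnpm higher in every mutant array than the wild-type range, at log2 fold changes of -0.51, -0.24, -0.27 and 0.44 (limma adjusted p = 0.225, 0.291, 0.347 and 0.207), and they were named after their values were seen. The probe set of hnrnpa0l, the brightest of the class, had signals of 12542, 13695 and 11722 in the mutant and 11478, 11370 and 14634 in the wild type, a log2 fold change of 0.03 (95% interval -0.27 to 0.32, limma adjusted p = 0.933). Its name ends in s_at, the maker's mark for probes shared by several genes, so its gene is uncertain. Of the other PTB genes, 2 were also named after their values were seen. The gene ptbp1b, a regulator of many exons outside neurons, was at -0.35 (limma adjusted p = 0.187) with no overlap, and ptbp3 was at 0.87 (0.266). The ptbp3 signals were 186, 182 and 176 in the mutant and 56.6, 85.0 and 201 in the wild type. Without wild type replicate 3 it passed at 1.39 (limma adjusted p = 0.0278).

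SR proteins promote the use of exons through domains rich in arginine and serine. None of their 16 probe sets of 13 genes passed in limma. At an unadjusted p under 0.05 there were 3 of 16, all higher in the mutant, against 20.6% of all tested probe sets (10.2% higher). The class median log2 fold change was 0.10. The gene srsf1a encodes a founding member of the family that acts in both constitutive and alternative splicing. Its signals were 3403, 3108 and 3274 in the mutant and 1796, 2022 and 411 in the wild type. The groups did not overlap, and wild type replicate 3 lay far below its own group.

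The log2 fold change of srsf1a was 1.51 (SE 0.50, 95% interval 0.37 to 2.65, limma adjusted p = 0.137). Without wild type replicate 3 the difference shrank to 0.77 and, with the spread of that group gone, passed (limma adjusted p = 0.0136). With the actc1b ratio as a covariate srsf1a lay in the other direction at -0.61 and did not pass. Its paralog srsf1b had probe sets at 0.30 and -0.23, neither past the threshold (limma adjusted p = 0.517 and 0.440).

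None of the other SR genes passed either. The 3 probe sets of srsf6a, a regulator of exon choice, were at 0.42, -0.14 and 0.56 (limma adjusted p from 0.191 to 0.580). At the first srsf6a set wild type replicate 3 had a signal of 96.5 against 232 to 290 on the other arrays, and without it the log2 fold change was -0.08. At the third the mutant signals of 290, 328 and 372 lay just above those of the wild type (183, 209 and 288). The brightest SR probe set, that of srsf11, had signals of 6272, 6788 and 7096 in the mutant and 5274, 5349 and 6001 in the wild type. Its groups did not overlap, at a log2 fold change of 0.28 (95% interval 0.03 to 0.53, limma adjusted p = 0.201).

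The KH-domain STAR proteins, of which Sam68 is the best known in mammals, link signalling to splicing. Here khdrbs1a had 6 probe sets and khdrbs1b 1, and none of the 7 passed in limma. At an unadjusted p under 0.05 there was 1 of 7, against 20.6% of all tested probe sets. The probe sets of khdrbs1a ran from -0.43 to 0.58, with 3 above and 3 below 0. Those above 0 had names that begin with Dr.18282.1, Dr.18282.4 and Dr.18282.9, and those below 0 shared the name Dr.18282.7. The sets below 0 are annotated with the same source sequence, so they are not separate readings. At Dr.18282.1.S1_a_at the mutant signals of 7592, 7710 and 8641 were above the wild-type signals of 6265, 7141 and 5326. At Dr.18282.7.S1_a_at they were below, at 6945, 6563 and 6784 against 7372, 7208 and 7853. The respective log2 fold changes of khdrbs1a were 0.36 and -0.14 (limma adjusted p = 0.169 and 0.464). The brightest set of the class, Dr.18282.4.A1_at, was at 0.37 (limma adjusted p = 0.334). Its signals overlapped, at 11545, 12334 and 11074 in the mutant and 6314, 10279 and 11345 in the wild type. The probe set of khdrbs1b was at 0.19, with no overlap (limma adjusted p = 0.382).

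The U2 factors recognise the 3' end of the intron and the branch point. None of their 15 probe sets of 11 genes passed in limma. At an unadjusted p under 0.05 there were 2 higher and 1 lower, against 20.6% of all tested probe sets. Between genotypes 8 of 15 did not overlap, 4 in each direction, against 27.0% of all tested probe sets (13.2% higher, 13.8% lower). Of the 4 that were higher, those of sf3b6, u2af1 and the first of sf3a2 had wild type replicate 3 as the lowest array by over 0.5 on the log2 scale. The SF3a subunit gene sf3a2 had signals of 2762, 2707 and 2923 in the mutant and 2502, 1704 and 901 in the wild type. The mutant arrays lay close together and the wild-type arrays were spread out, with all of them lower. Its log2 fold change was 0.84 (SE 0.31, limma adjusted p = 0.170), from 0.44 without wild type replicate 3 to 1.17 without wild type replicate 1, where it passed (0.0444). A second sf3a2 probe set was at 0.43 (0.298). Its signals were 208, 212 and 222 in the mutant and 200, 150 and 134 in the wild type. At both sf3a2 sets the groups did not overlap.

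The branch-point protein gene sf3b6 was at 0.52 (SE 0.20, limma adjusted p = 0.190), with mutant signals of 1833, 1507 and 1741 against 1477, 1280 and 871, and at 0.30 without wild type replicate 3. The U2AF large subunit gene u2af2b had its brighter probe set at -0.06 (95% interval -0.32 to 0.20, limma adjusted p = 0.816) and its other at -0.22 (0.325). With the actc1b ratio as a covariate, this first sf3a2 probe set was at -0.33 and sf3b6 at -0.27, and neither passed.

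Many proteins of the snRNP, Sm and LSm genes form the core of the spliceosome or of the decapping complex. Others that the symbol rule takes in do not, such as those of the lsm12 and lsm14 genes. None of their 27 tested probe sets of 21 genes passed in limma. At an unadjusted p under 0.05 there was 1 of 27, against 20.6% of all tested probe sets. The class median log2 fold change was -0.01. For 4 of 27 the groups did not overlap, 2 in each direction, against 27.0% of all tested probe sets. The U1 protein gene snrpc had signals of 3735, 3207 and 3470 in the mutant and 2893, 2868 and 1725 in the wild type. It was at 0.51 (SE 0.20, limma adjusted p = 0.191), and 0.27 without wild type replicate 3. With the actc1b ratio as a covariate it was at -0.31 and did not pass. The decapping-complex gene lsm1 was at 0.71 (SE 0.35, limma adjusted p = 0.294), with overlapping signals of 136 to 319 and 100.4 to 192.

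The brightest probe set of this class, that of the Sm ring gene snrpf, was level. Its signals were 8787, 8782 and 8441 in the mutant and 7846, 8413 and 10115 in the wild type, a log2 fold change of -0.01 (95% interval -0.28 to 0.26, limma adjusted p = 0.966).

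PRP factors, named after yeast mutants in pre-mRNA processing, assemble and activate the spliceosome. Of 14 probe sets of 11 genes 12 were tested, and prpf38a rose while 11 did not pass. The protein of prpf38a belongs to the complex that is activated for catalysis. Its signals were 268, 278 and 340 in the mutant and 146, 159 and 158 in the wild type, with every mutant array higher. The log2 fold change was 0.93 (SE 0.19, 95% interval 0.50 to 1.36, limma adjusted p = 0.0346).

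The call of prpf38a ended (limma adjusted p up to 0.127) with any single array but wild type replicate 3 left out and with the ratio of gapdhs (0.452) or of actc1b (0.340) as a covariate. Its log2 fold change stayed between 0.71 and 1.09 over all alternatives. The kinase gene prpf4ba, which acts on PRP proteins, had signals of 646, 873 and 579 against 485, 515 and 350, with no overlap, and did not pass (0.64, SE 0.22, limma adjusted p = 0.142). Its paralog prpf4bb was at -0.20 (0.627). The gene of the ubiquitin ligase scaffold prpf19 was at -0.13 (95% interval -0.38 to 0.13, limma adjusted p = 0.582).

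DEAD-box helicases unwind RNA in splicing, export, translation and ribosome assembly. None of their 33 tested probe sets of 25 genes passed in limma. At an unadjusted p under 0.05 there were 5 of 33, all lower in the mutant, against 20.6% of all tested probe sets (10.3% lower). In this class 26 of 33 were below 0, with a median log2 fold change of -0.23, against 48.4% below 0 and a median of 0.02 over all tested probe sets. The groups did not overlap for 9 of 33, 8 lower and 1 higher. The share over all tested probe sets was 27.0% (13.2% higher, 13.8% lower). Of the other classes, 21 of 33 hnRNP and PTB, 15 of 26 RBM and 14 of 27 snRNP, Sm and LSm probe sets were below 0. So were 6 of 12 PRP, 6 of 15 U2, 5 of 16 SR, 3 of 7 DEAH-box and 3 of 7 KH-domain probe sets. The DEAD-box class was followed further after its values were seen, and its counts and medians are a description without a test. Per array, the class median of deviations from each probe set's mean was -0.16, -0.06 and -0.07 in the mutant and 0.10, 0.19 and 0.00011 in the wild type. Every mutant array was lower than every wild-type array, by little in the case of wild type replicate 3. With each array left out in turn the median ran from -0.29 to -0.18, and over all alternatives from -0.33 to -0.17. The 3' to 5' ratios and some of the tissue markers given above moved with genotype here too. The median was -0.33 with the ratio of gapdhs and -0.26 with that of actc1b as a covariate.

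The lowest p of the class belonged to ddx21, a nucleolar helicase of ribosomal RNA synthesis. Its signals were 1342, 2011 and 1491 in the mutant and 2315, 3021 and 2156 in the wild type, with no overlap. The log2 fold change was -0.64 (SE 0.19, 95% interval -1.06 to -0.21, limma adjusted p = 0.105). Next came ddx27, whose yeast relative Drs1 acts on the large ribosomal subunit, with 616, 823 and 753 against 1065, 1060 and 845. It was at -0.44 (SE 0.17, limma adjusted p = 0.187), again with no overlap.

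Genes whose yeast relatives act in ribosome assembly were collected after these values were seen (ddx18, ddx27, ddx31, ddx47, ddx49, ddx51, ddx52, ddx54, ddx55 and ddx56). Of their 13 tested probe sets 10 were below 0, with a median log2 fold change of -0.33, and none passed in limma. The other 20 DEAD-box probe sets, which include that of ddx21, had a median of -0.18, with 16 below 0. The difference between these groups was not tested. A call appeared for the splicing and transcription cofactor ddx5 only when wild type replicate 3 was left out (-0.55, limma adjusted p = 0.0478, against -0.33 and 0.353 with all arrays).

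The helicase ddx61 gave the brightest DEAD-box probe set. Its signals were 4235, 4378 and 4707 in the mutant and 5070, 5103 and 5390 in the wild type, which did not overlap, at a log2 fold change of -0.23 (95% interval -0.47 to 0.02, limma adjusted p = 0.272). A second ddx61 probe set was at 0.33 (0.616) with overlapping groups, and the third lay below the filter. The germ cell helicase ddx4, known as vasa, also lay below the filter. Its signals were 4.63, 24.8 and 55.3 in the mutant and 53.0, 32.9 and 33.6 in the wild type, and it was not tested.

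Some DEAH-box helicases drive steps of the splicing cycle, and others act elsewhere. None of 7 probe sets of 7 genes passed in limma. At an unadjusted p under 0.05 there was 1 of 7, against 20.6% of all tested probe sets. The gene dhx16, related to yeast Prp2, which activates the spliceosome, had signals of 335, 402 and 392 in the mutant and 491, 538 and 609 in the wild type. The groups did not overlap, at a log2 fold change of -0.54 (SE 0.17, 95% interval -0.91 to -0.16, limma adjusted p = 0.115). The nucleolar gene dhx37 was at -0.27 (0.474), also without overlap. The gene dhx15, related to yeast Prp43, which takes the spliceosome apart, was at 0.08 (95% interval -0.17 to 0.34, limma adjusted p = 0.728).

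RBM proteins share RNA recognition motifs and little else. None of 26 tested probe sets of 22 genes passed in limma, and the class median was -0.01. At an unadjusted p under 0.05 there were 2 higher and 1 lower, against 20.6% of all tested probe sets. The signals of rbm12bb were 438, 637 and 456 in the mutant and 258, 152 and 349 in the wild type, with no overlap. The log2 fold change was 1.07 (SE 0.30, limma adjusted p = 0.0901), and it passed at 1.35 without wild type replicate 3 (0.0351). One probe set of rbm4.2 was at -0.51 (limma adjusted p = 0.162) and the other at -0.0017 (0.995). The exon junction gene rbm8a was at 0.19 (95% interval -0.05 to 0.43, limma adjusted p = 0.351), with every mutant array (5754 to 6217) above every wild-type array (4925 to 5549).

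The probe sets of one gene often leaned in opposite directions, among the members as over the array. Of the 143 genes 34 had 2 or more probe sets, and 27 had 2 or more that were tested. Among the 62 pairs these form, both log2 fold changes had the same sign in 31 (50%), against 57.6% of the 1301 pairs over the array. Their correlation, with each pair entered in both orders, was 0.03 among members and 0.20 over the array, as a description across pairs that share arrays and probe sets. Without hnrnpa0a it was -0.16 over 59 member pairs, of which 47.5% had the same sign. The gene khdrbs1a, with 6 probe sets, some of which share a source sequence, forms more of these pairs than any other. At an unadjusted p under 0.05 in limma, 16.1% of the member pairs differed, against 17.4% of all pairs. After hnrnpa0a the members with the largest differences in ratio to their error were ddx51 and prpf3, named after their values were seen. The 2 ddx51 probe sets at -0.43 and 0.53 differed by 0.95 (SE 0.24, limma adjusted p = 0.114), and those of prpf3 at 0.88 and -0.61 by 1.49 (SE 0.39, limma adjusted p = 0.124). The higher ddx51 set was dim, near the filter level of 41.1, with signals of 65.6, 94.8 and 72.9 in the mutant and 63.9, 59.9 and 39.7 in the wild type. Without wild type replicate 3 its log2 fold change was 0.31. At the higher prpf3 set, wild type replicate 3 had a signal of 25.4 against 90.6 to 136 on the other arrays, and without it the log2 fold change was 0.23.

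**Figure D3:**
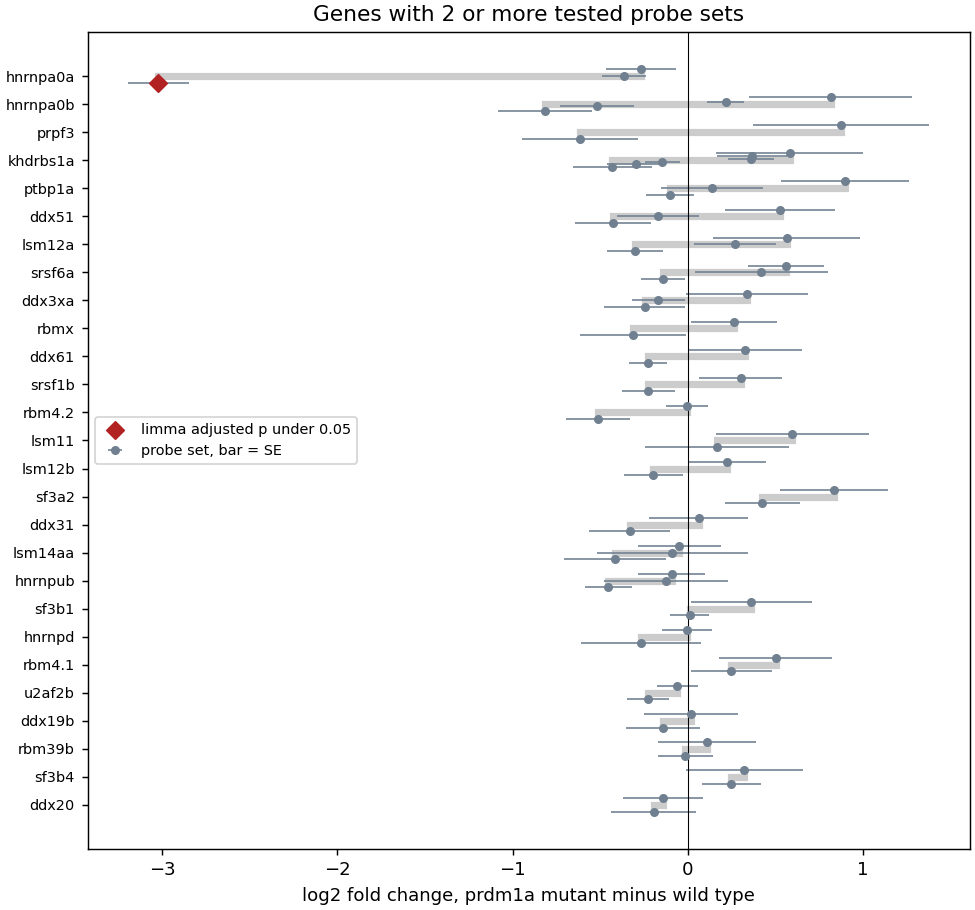
Log2 fold change (mutant minus wild type, x axis) of every tested probe set of the 27 genes with 2 or more, with bars of 1 SE and grey bands from the lowest to the highest probe set of a gene. The hnrnpa0a band reaches from -3.02 to -0.26, and the diamond at its end is the only one of these probe sets past the threshold.

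Paralogs were set side by side through the brightest tested probe set of each. Of 16 paralog pairs, 10 had the same sign of log2 fold change and 6 opposite signs. The pairs ddx3xa and ddx3xb (both -0.17), ddx39aa and ddx39ab (-0.13 and -0.29) and hnrnpua and hnrnpub (-0.77 and -0.45) were among the former. The pairs ptbp1a and ptbp1b (0.14 and -0.35) and lsm12a and lsm12b (-0.30 and 0.22) were among the latter. Values near 0 were also counted by their sign, such as that of hnrnpaba (-3.1e-05, SE 0.11). The counts of signs were not tested. Signs could turn with the probe set read. Further tested sets were at -0.10 and 0.90 for ptbp1a, and at -0.20 for lsm12b. Those of lsm12a were at 0.27 and 0.56, and those of ddx3xa at 0.34 and -0.25. None of these further sets passed, and several were dim. Signals were 37.5 to 115 at the ptbp1a set at 0.90 (SE 0.36) and 49.0 to 105 at the ddx3xa set at 0.34 (SE 0.35). At the lsm12a sets they were 76.2 to 111 (SE 0.24) and 44.1 to 131 (SE 0.42), with the filter at 41.1. Of these 32 genes only hnrnpua passed at this probe set. Near-identical paralogs can share probes, so values of a pair are not independent.

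Wild type replicate 3 stood below the other arrays for many members. It was the lowest of the 6 arrays for 46 members (26.1%), against 20.8% of all tested probe sets. It was also the highest for 32 members (18.2%), against 23.3% of all, and its median deviation over the members was -0.02. It was the lowest by over 0.5 on the log2 scale for 17 members (9.66%), against 5.08% of all, while no other array was so for more than 3 members. The 17 included sf3a2, sf3b1, sf3b6 and u2af1 of the U2 factors, snrpb, snrpb2 and snrpc of the snRNP genes, and srsf1a, srsf3b and srsf6a of the SR genes. The Sm gene snrpb had signals of 5787, 5108 and 5676 in the mutant and 5674, 4954 and 2522 in the wild type. The difference went from 0.41 to 0.06 without that array. No cause for these low signals was tested.

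Without wild type replicate 3, 8 of 176 members passed in limma, against 461 of all 10851 tested probe sets. The members were 4 higher (rbm12bb, ptbp3, srsf1a and prpf38a) and 4 lower (hnrnpua, hnrnpub, hnrnpa0a and ddx5). Of the members only hnrnpa0a passed without mutant replicate 1, 2 or 3 (210, 200 and 170 over the array). The same held without wild type replicate 2 (114 over the array). Without wild type replicate 1 the 3 members that passed were hnrnpa0a, hnrnpua and sf3a2, against 329 over the array.

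**Figure D4:**
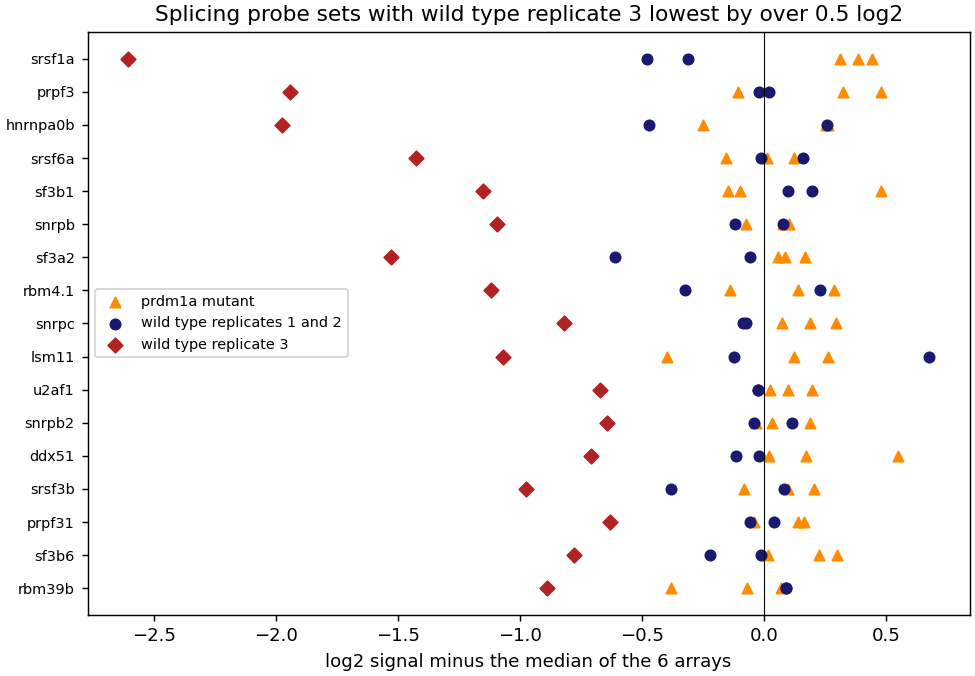
Log2 signal of the 17 members in which wild type replicate 3 was lowest by over 0.5, as the difference from the median of the 6 arrays (x axis). Diamonds are wild type replicate 3, circles the other wild-type arrays and triangles the mutant arrays, and srsf1a at the top shows the widest gap, of 2.13 to the next array.

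Other genes of RNA processing, outside the symbol rule, were called about as often as the array. Of 89 measured genes with 113 tested probe sets, 1 probe set rose and 3 fell (3.54%, against 3.39% of all), and 33 did not overlap (29.2%, against 27.0%). One of the 2 probe sets of snu13a, whose protein binds the U4 snRNA and box C/D RNAs, rose by 1.72 on the log2 scale (SE 0.25, limma adjusted p = 0.00816), with signals of 834, 626 and 463 in the mutant and 161, 178 and 238 in the wild type. The other snu13a probe set had signals of 119.6, 110.3 and 90.1 against 129, 155 and 105, which overlapped, at -0.28 (limma adjusted p = 0.576). The log2 fold changes of these snu13a sets differed by 1.99 (limma adjusted p = 0.0415 over all pairs). The spliceosome gene isy1 fell by 1.07 on the log2 scale (SE 0.16, limma adjusted p = 0.00824), with 333, 335 and 371 against 696, 812 and 669. The poly(C)-binding protein gene pcbp4 was at -1.06 (SE 0.20, limma adjusted p = 0.0228), and cwc22, needed to load the exon junction complex, at -0.72 (SE 0.15, limma adjusted p = 0.0365). At the 4 probe sets that passed, every mutant array lay on one side of every wild-type array. With the gapdhs ratio as a covariate the snu13a set alone of these 4 passed, and with the actc1b ratio none did (limma adjusted p from 0.231 to 0.554). Calls also ended for cwc22 (limma adjusted p up to 0.155) without any array but wild type replicate 3 and without the variance trend (0.0663), for pcbp4 when mutant replicate 1 or 3, or wild type replicate 1 or 2, was left out (up to 0.0773), and for isy1 (0.0576) and snu13a (0.0502) without wild type replicate 2.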

How the data were processed

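The authors deposited 1 linear intensity per probe set and array, from MAS5 per the submitters' processing notes, which name no version. Intensities were log2-transformed. Control probe sets (115) and the dimmest 30% of the others by mean log2 signal (under a signal of 41.1) were dropped, and the remaining 10851 were fitted with limma 3.58.1 in R 4.3.3 (genotype as the only term, eBayes with a variance trend), with Benjamini-Hochberg adjustment over all. Pairs of probe sets of a gene were fitted likewise, without the trend. Intervals are 95% and not adjusted. Fits were tested on simulated data. Figures used matplotlib 3.10.9.

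Gene names come from the platform annotation, and all 194 members matched a RefSeq gene of the same symbol. One probe set with several symbols that include a member was not used. Signals of different probe sets are not levels that can be compared. Members, lists and tests were chosen with earlier results of these data known. By a rule, named genes are those past the threshold, the 2 with the smallest p and the brightest in each class, and ddx4; others are said to be named after their values were seen or serve as counts. Same-numbered mutant and wild-type arrays did not deviate together (correlations of 0.06, 0.05 and -0.07), so they were not treated as pairs. Replicates are separate by label only, so p-values measure the spread between these samples, which may be technical. The number of arrays limits the precision. Alternatives were other normalizations, offsets, filters and variance models, left-out arrays, and the control ratios as covariates.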

Additional observations from a re-analysis of the deposited data

How the results depend on the processing

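The count of 3 splicing probe sets past the threshold was within 1.5 times of itself after quantile normalization, median centring, offsets of 16 and 64, no filter, a 50% filter, the robust fit and at an adjusted p of 0.1. It was 1 with the replicate block, with the gapdhs ratio and with the actc1b ratio, with 0 higher and 1 lower in each. Without the variance trend 1 was lower. An ordinary fit per probe set, which shares no variance, called 0 (22 at an unadjusted p under 0.05, and 1 of all 10851 probe sets adjusted). Leaving out single arrays gave 1 to 8, with 0 to 4 higher and 1 to 4 lower. The median log2 fold change of the members was -0.079 after median centring, -0.080 with the gapdhs ratio, -0.15 with the actc1b ratio, and -0.07 to -0.02 with arrays left out. The 2 pairs of probe sets that differ were 0 without the filter (of 76 pairs, 8 at an unadjusted p under 0.05), with the gapdhs ratio (6) and with the actc1b ratio (13), and 2 with any array left out. The replicate block left these 2 in place, and ended the calls of hnrnpua (limma adjusted p = 0.0601), prpf38a (0.0723), cwc22 (0.0776) and pcbp4 (0.0624). Over the whole array, 368 probe sets passed, against 44 with the gapdhs ratio, 26 with the actc1b ratio and 114 to 461 with single arrays left out. The added DEAD-box counts below 0 were 23 to 29. The causes of these shifts were not tested. Blocks, covariates and left-out arrays leave fewer degrees of freedom, and the part of this in the shifts was not tested either. As the control ratios did not overlap between genotypes, fits with them as covariates cannot tell the part of a ratio from that of genotype.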
